A study of Mus musculus with 48 samples.

Results

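Cultured NIH3T3 cells were compared between the hours in which Cry1 transcript was declining and the hours in which it lay in and was leaving its trough. NIH3T3 is a mouse embryonic fibroblast line. The cells had been grown to confluence in serum-supplemented medium and given forskolin, an activator of adenylyl cyclase that sets the circadian clocks of a culture to a common phase. All 48 samples of the series share this line and treatment, no untreated culture was analysed here, and each hour from 20 to 67 after forskolin is represented by 1 array. The declining group held 8 of the 48 arrays, hours 28 to 33 and hours 56 and 57, and the trough group held 10, hours 40 to 45 and hours 64 to 67. Hours before 48 are called the 1st cycle and later hours the 2nd. The 4 arrays of hours 52 to 55, which fall in the 2nd decline, were left out because their spiked-in bacterial BioB controls were brighter (15.41 to 15.58 on the log2 scale, against 14.32 to 14.69 in the declining and 14.39 to 14.78 in the trough arrays), and the other 26 arrays lay outside both windows. Within a window the replicates are successive hours, so their spread holds any change over those hours as well as technical error. The labels do not say whether the hours were separate cultures of 1 plating.

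The mammalian clock is a feedback loop in which the CLOCK and BMAL1 proteins (Bmal1 is the gene Arntl) activate the Per and Cry genes, whose products in turn repress CLOCK and BMAL1. The genes for the nuclear receptors REV-ERBα and REV-ERBβ, Nr1d1 and Nr1d2, are activated by the same pair, and their products repress Arntl. Cry1 reaches its peak later than the Per genes, so its decline marks a late point of the loop.

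All values are log2 of the deposited probe set intensity, and a difference is declining minus trough on that scale. Differences come from a limma fit over the 18 arrays with a linear term for hour, which takes out a steady drift over the course, and each ± is the standard error of that fit. p-values were adjusted by Benjamini-Hochberg over all 45037 probe sets. Because the windows were named for Cry1, its values are a description.

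Cry1 went from 14.82 at hour 28 to 14.19 at hour 33, and stood at 14.21 and 14.17 at hours 56 and 57. In the trough windows it ran from 13.49 at hour 41 up to 14.17 at hour 45, and from 13.74 at hour 65 up to 14.17 at hour 67. The declining arrays had a median of 14.50 (lowest 14.17, highest 14.82) and the trough arrays a median of 13.84 (lowest 13.49, highest 14.17). The groups did not overlap, but the lowest declining array, hour 57, and the highest trough array, hour 45, met at the same value to 2 decimals. The label therefore described the data, with the last hours of each trough window already on the next rise. The difference was 0.60 ± 0.13, with 0.77 in the 1st cycle and 0.25 in the 2nd.

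**Figure D1:**
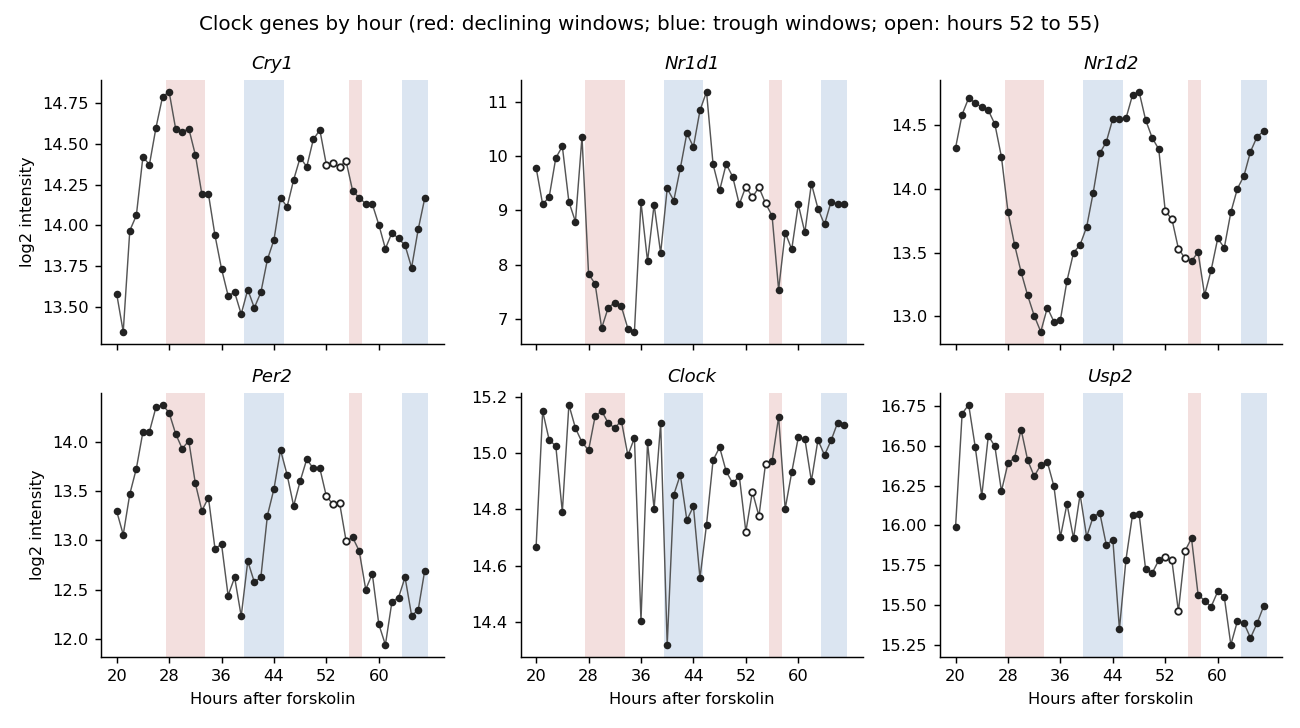
Log2 intensity of 6 clock genes (y axis) against hours after forskolin (x axis); each point is 1 array, red bands mark the declining windows, blue bands the trough windows and open points hours 52 to 55. Nr1d1 and Nr1d2 lie low in the red bands and high in the blue ones, Cry1 lies high in the red bands, Per2 lies high in the 1st red band but at 13.03 and 12.89 in the 2nd, and Usp2 falls over the course, from 16.39 at hour 28 to 15.49 at hour 67.

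Across the array no probe set passed the adjusted threshold of 0.05 in either direction (0 of 45037, 0%), and the smallest adjusted p in limma was 0.0967. At an unadjusted p under 0.05, 4377 probe sets (9.72%) were higher and 4002 (8.89%) were lower in the declining hours. Every named difference below therefore missed the test in this fit, and is given as a value with its error. Replacing the linear term with a block for cycle gave 1033 probe sets higher (2.29%) and 1178 lower (2.62%) at the adjusted threshold. In that fit a steady drift is not taken out, because the trough came 12 h after the decline in the 1st cycle and 9 h after it in the 2nd, so a falling gene is counted as higher in the decline and a rising one as lower.

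Among the clock repressors, Nr1d1 differed most. Its declining arrays ran from 6.83 to 8.90 with a median of 7.42, and its trough arrays from 8.74 to 10.84 with a median of 9.29. Of the declining arrays only that of hour 56 lay inside the trough range. The left-out hours 52 to 55 ran from 9.13 to 9.44, also inside the trough range and above every declining array. The difference was -2.12 ± 0.37 (adjusted p = 0.169), and it was -2.63 in the 1st cycle and -0.81 in the 2nd. The test of the difference between cycles was not passed (-1.82 ± 0.52, adjusted p = 0.167). Without hour 56 the difference of Nr1d1 passed (-2.62, adjusted p = 0.0473).

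Nr1d2 gave a smaller difference that was nearly the same in both cycles. It ran from 12.88 to 13.82 (median 13.39) in the decline and from 13.70 to 14.55 (median 14.33) in the trough. The overlap came from hour 28, the first declining hour (13.82), and hour 40, the first trough hour (13.70). The difference was -0.86 ± 0.16 (adjusted p = 0.169), with -0.94 in the 1st cycle and -0.85 in the 2nd. Both receptor genes passed with a cycle block (adjusted p = 0.00182 for Nr1d1 and 0.00172 for Nr1d2), and neither changed sign in any of 36 alternative fits.

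The Per genes, whose proteins act with the CRY proteins, did not move as 1 group. Per2 had a declining median of 13.75 (12.89 to 14.29) and a trough median of 12.66 (12.24 to 13.92), and its difference of 0.34 ± 0.22 became 0.69 once the β-actin covariate described below was added to the fit (unadjusted p = 0.00327). It passed with the cycle block (0.67, adjusted p = 0.0493). Its trough range was wide because hours 43 to 45 climbed from 13.25 to 13.92, while hours 40 to 42 lay between 12.58 and 12.79. Per1 (-0.29 ± 0.13), Per3 (-0.22 ± 0.28) and Cry2 (-0.05 ± 0.17) overlapped broadly between the groups, and each of the 3 changed sign in some alternative. Bhlhe40, which encodes the repressor DEC1, differed by -0.23 ± 0.13 and by 0.00 with that covariate. Bhlhe41 and Ciart were below the median intensity of all probe sets (6.67).

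Of the activators, Clock had a difference of 0.36 ± 0.10 (adjusted p = 0.191), from 0.40 in the 1st cycle and -0.01 in the 2nd. Its declining arrays spanned 14.97 to 15.15 and its trough arrays 14.32 to 15.11, the lowest being hour 40, one of 4 trough arrays whose β-actin values stood apart. Of 3 further Clock probe sets above a log2 mean of 9, 2 gave 0.30 and 0.49, and the other gave -0.01. Npas2, whose protein can take the place of CLOCK, differed by -0.49 ± 0.21, and its ranges of 6.53 to 7.21 and 6.70 to 7.97 overlapped near the median intensity. Arntl differed by -0.08 ± 0.09 and Rora, a receptor that activates Arntl, by -0.11 ± 0.06. Rora passed with the cycle block on the lower side (-0.27, adjusted p = 0.0124), and its course rose over the hours. Rorb was below the median intensity.

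The output genes differed less. Dbp and Tef, which encode PAR bZIP factors, gave 0.09 ± 0.18 and -0.10 ± 0.17 with fully overlapping ranges (12.38 to 13.36 against 12.38 to 13.74 for Dbp). Usp2, a ubiquitin protease, gave 0.23 ± 0.09 here and 0.49 with the cycle block (adjusted p = 0.00447). Nfil3, a repressor that competes with the PAR bZIP factors, turned from -0.02 ± 0.05 to 0.34 (adjusted p = 0.00108) when the cycle block replaced the linear term. Both transcripts declined over the whole course, so these pairs of values show how much of such a gene's difference the linear term removes. Hlf, the other PAR bZIP gene, gave 0.16 ± 0.06 at its brightest probe set and -0.20 at a dimmer one, both with overlapping ranges (14.38 to 15.28 against 14.55 to 15.31 at the brightest). The brightest gave -0.17 in the 1st cycle alone (adjusted p = 0.0447 in the model of 4 window means), the opposite sign. Tsc22d3, a glucocorticoid-induced leucine zipper gene, gave 0.14 ± 0.06 and 0.20 at a second probe set. Pdk4, which restrains pyruvate dehydrogenase, had a median of 18.03 (highest 18.11) in the decline and of 18.13 (highest 18.26) in the trough (-0.06 ± 0.02), and Klf10, a zinc finger factor, gave -0.13 ± 0.07. Pdk4 (adjusted p = 0.0128) and Klf10 (adjusted p = 0.0341) passed with the cycle block, both lower. Wee1 (0.01 ± 0.08), Nampt (-0.07 ± 0.06) and Klf9 (0.00 ± 0.03) had differences close to or under their standard errors, and Rgs16 and Ppara were below the median intensity.

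Of the 10 repressors, 5 activators and 13 output genes measured, at an unadjusted p under 0.05 there were 1, 1 and 3 higher and 3, 1 and 1 lower. The 1 higher repressor was Cry1, which names the windows, so its place in this count is a description. Of all genes above the median intensity, 10.3% were higher and 24.3% lower.

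**Figure D2:**
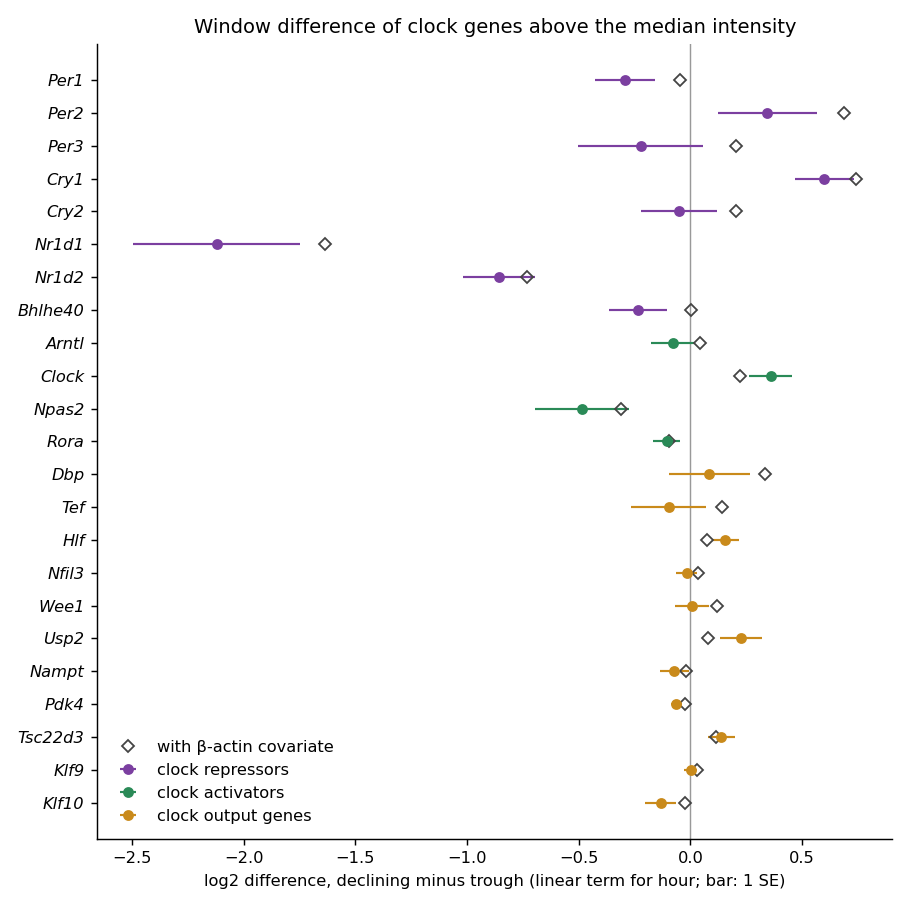
Log2 difference, declining minus trough (x axis), of the 23 clock genes above the median intensity (y axis); filled points are the fit with a linear term for hour, bars are 1 standard error and open diamonds are the fit with the β-actin covariate added. Nr1d1 (-2.12) and Nr1d2 (-0.86) lie farthest to the left and Cry1 (0.60) farthest to the right, and the diamonds of Per1, Bhlhe40 and Klf10 lie near 0.

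The regulatory letters of the loop were looked for in the RefSeq promoters of the clock genes (mouse build GRCm38.p6, 250 bases before to 50 bases after each start site, both strands). The E-box CACGTG, the element bound by CLOCK and BMAL1, was in 4 of the 8 repressor genes with a promoter in the table (Bhlhe41, Ciart, Cry1 and Per1), in 0 of 5 activator genes and in 1 of 11 output genes (Tef). It was in 7.15% of all 32851 promoters, a share of promoters and not of genes. The repressor list holds genes that this pair activates, so its share describes the list. The D-box (TTATGTAA or TTACGTAA), bound by PAR bZIP factors and NFIL3, was in 1.06% of all promoters and here only in that of Per3. The element of the Rev-erb and ROR receptors was in 0.384% of all and here only in that of Arntl. The stretches of Cry1, which names the windows, of Per1 and of Per3 are shown 5′ to 3′ on the strand of the gene, with the motif in capitals.
Cry1, E-box, 60 bases before the start site, chr10:85185089-85185134, minus strand: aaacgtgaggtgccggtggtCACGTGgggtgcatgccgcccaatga
Per1, E-box, 166 bases before the start site, chr11:69098763-69098808, plus strand: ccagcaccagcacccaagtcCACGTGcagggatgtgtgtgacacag
Per3, D-box, 158 bases before the start site, chr4:151044796-151044843, minus strand: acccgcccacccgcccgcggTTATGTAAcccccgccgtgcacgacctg
Cry1 and Per1 share the letters of the E-box and had differences of 0.60 and -0.29. No match to these motifs was found for Nr1d1 or Nr1d2, but only 8 of the 10 repressor genes had a promoter to search.

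Named here are the 5 genes of smallest p in each direction among probe sets above the median intensity, Nr1d1 among them. All missed the adjusted test, and the 9 other than Nr1d1 had small differences with a narrow spread. At or below the median intensity, from which none was drawn, the smallest adjusted p was also 0.0967. On the higher side, Metap2, a methionine aminopeptidase, ran from 14.09 to 14.21 in the decline and from 13.71 to 14.02 in the trough, with no overlap and a difference of 0.29 ± 0.04 (adjusted p = 0.0967). Ackr4, an atypical chemokine receptor, was ranked by a dimmer probe set that did not overlap (15.98 to 16.05 against 15.82 to 15.94), with 0.13 ± 0.02. Its brightest probe set gave 0.15 with overlapping ranges (16.26 to 16.39 against 16.06 to 16.27). Gm1976, a predicted gene, did not overlap either (12.33 to 12.73 against 12.01 to 12.30), with 0.32 ± 0.06.

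Tomm20, a receptor of the mitochondrial outer membrane for imported proteins, had the smallest p (0.25 ± 0.04, adjusted p = 0.0967). It was ranked by a dimmer probe set: its 4 brighter ones gave -0.01 to 0.04. Metap2 was likewise ranked by a dimmer probe set, and its 2 brighter ones gave -0.01 and 0.01, while a dimmer one gave 0.57. The probe sets of these genes disagree, so each difference is given for its probe set alone. Ado, a thiol dioxygenase, gave 0.17 ± 0.03 with overlapping ranges. Its brighter probe set gave 0.22 and a dimmer one, at a mean of 7.30, gave -0.38.

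On the lower side, Ifi27, an interferon-induced gene, ran from 16.03 to 16.36 in the decline and from 16.36 to 16.61 in the trough. These ranges touched without overlap, and the difference was -0.23 ± 0.04 (adjusted p = 0.169), against -0.07 at a second probe set. Reep4, which clears endoplasmic reticulum from chromosomes in mitosis, gave -0.35 ± 0.06, Dglucy, a D-glutamate cyclase, -0.42 ± 0.07, and Pced1a -0.45 ± 0.08. All 3 overlapped between groups, and the brighter probe set of Pced1a gave -0.03.

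Only 35 probe sets separated the groups completely, 20 with the decline above (0.0444% of all) and 15 with it below (0.0333%). They named 18 and 15 genes, in 10 and 5 cases by a probe set that is not the brightest of its gene. Cry1, which names the windows, was 1 of the genes with the decline above. The examples beyond those above were chosen after their values were seen. Higher in the decline were Selenoi, which makes phosphatidylethanolamine (0.20 ± 0.04), Sin3b, a transcriptional corepressor (0.13 ± 0.03), Kif2a, a microtubule-depolymerizing kinesin (0.19 ± 0.05), and Dnm1l, the mitochondrial fission GTPase (0.21 ± 0.07, by a dimmer probe set). Lower were Ift172, a subunit of the ciliary transport complex (-0.67 ± 0.14), Sgsh, a lysosomal enzyme of heparan sulfate breakdown (-0.76 ± 0.17), Slc16a10, an aromatic amino acid transporter (-0.53 ± 0.11), and Plod1, a lysyl hydroxylase of collagen (-0.19 ± 0.04). Sgsh was the largest of these, from 9.68 to 10.22 in the decline and from 10.29 to 11.29 in the trough. With the β-actin covariate described below all of these examples shrank, Sgsh to -0.44, Ift172 to -0.43 and Dnm1l to 0.09. In the left-out hours 52 to 55 all but Plod1 lay wholly outside their declining range on the trough side (Sgsh 11.06 to 11.64). The Metap2, Ackr4, Gm1976 and Ifi27 probe sets given above as not overlapping did so too, while Cry1 (14.36 to 14.395) stayed inside its own.

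The β-actin probe sets, a common gauge of the length of the RNA and its cDNA, differed between the groups. The 3′ probe set exceeded the 5′ one by 1.03 to 1.27 in the declining arrays and by 0.99 to 2.22 in the trough arrays, and 4 trough arrays (hours 40, 43, 45 and 67) but 0 declining arrays were over 1.4. Of all probe sets, 18.6% were at an unadjusted p under 0.05 in the contrast as designed, 8.89% once that value was added to the fit (called the β-actin covariate below) and 4.73% without those 4 arrays. Single arrays moved the share too, to 41.3% without hour 56 and 11.2% without hour 40. Counts with the β-actin covariate and without the 4 arrays are given beside the gene groups below.

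**Figure D3:**
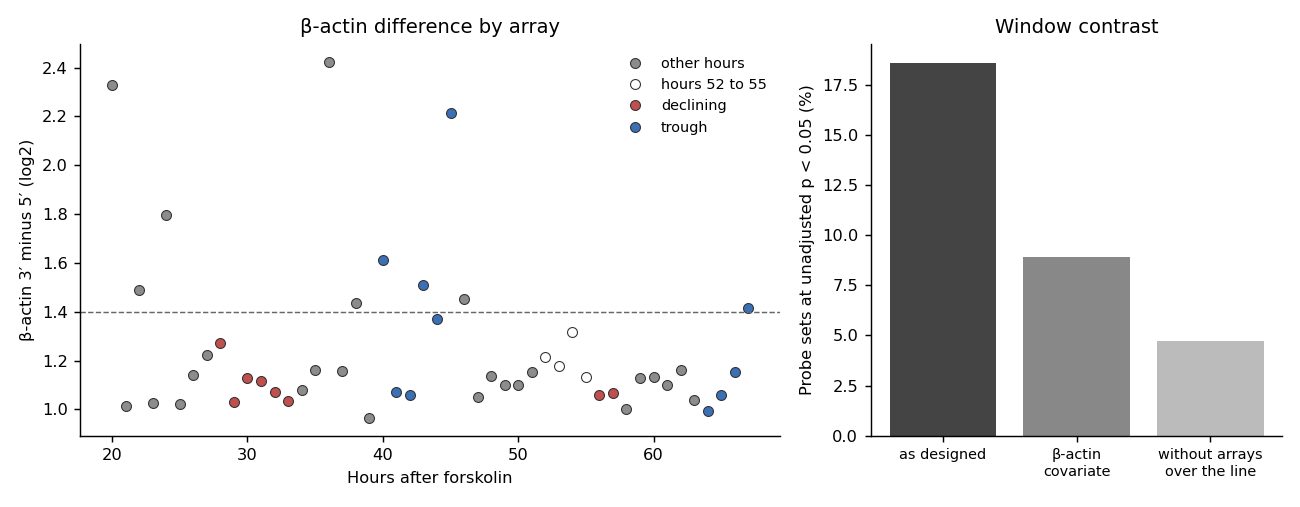
Left, β-actin 3′ minus 5′ probe set difference on the log2 scale (y axis) against hours after forskolin (x axis), 1 point per array, with a dashed line at 1.4; right, share of the 45037 probe sets at an unadjusted p under 0.05 in 3 fits. The 4 trough arrays above the line include hour 45 at 2.22, and the share falls from 18.6% to 8.89% and 4.73%.

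Gene groups were read against the genes above the median intensity, each by its brightest probe set (10366 genes). Of these, 10.3% were higher and 24.3% were lower in the decline at an unadjusted p under 0.05. With the β-actin covariate the shares were 3.02% and 5.41%, and without the 4 arrays they were 3.18% and 5.25%. The median difference of these genes was -0.05.

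The unfolded protein response was mostly lower in the decline. This response raises chaperones and folding enzymes of the endoplasmic reticulum (ER) when unfolded proteins build up there. Of 23 members measured, 12 were lower and 1 was higher at an unadjusted p under 0.05, with a median of -0.13. With the β-actin covariate 8 were lower and 0 higher (median -0.05), and without the 4 arrays 7 were lower and 0 higher (median -0.06). In the separate cycles 17 of 23 were lower in both, against 30.7% of the genes above the median, and the medians were -0.07 and -0.11. With the cycle block 8 of 23 passed the adjusted test, all of them lower, against 2.62% of all probe sets. A steady drift is not taken out in that fit. With the linear term the differences were small: only Sdf2l1 exceeded 0.3 in size.

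Sdf2l1, a cofactor of the ER chaperone BiP, ran from 12.67 to 13.29 in the decline and from 13.03 to 13.74 in the trough, and differed by -0.52 ± 0.12, with -0.48 in the 1st cycle and -0.43 in the 2nd. The protein disulphide isomerase Pdia6 differed by -0.29 ± 0.06, and only its trough array of hour 67 (14.86) lay inside the declining range of 14.77 to 15.02. Creld2, another disulphide isomerase of the ER, differed by -0.23 ± 0.05, Pdia4 by -0.22 ± 0.05, the chaperone Hyou1 by -0.21 ± 0.05, Pdia3 by -0.18 ± 0.04 and the calcium-binding chaperone Calr by -0.15 ± 0.03. All 7 kept an unadjusted p under 0.05 with the β-actin covariate (0.000964 for Pdia6 to 0.0103 for Calr). The other chaperones were not alike: Hspa5, the gene of BiP, differed by 0.00 ± 0.04, with 0.03 in the 1st cycle and -0.15 ± 0.04 in the 2nd (adjusted p = 0.441), and Canx, the membrane-bound partner of calreticulin, by -0.02 ± 0.03. Edem1, which sends misfolded glycoproteins to degradation, was the member on the higher side (0.26 ± 0.11), and it gave 0.06 with the β-actin covariate.

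The ER stress element, CCAAT and CCACG with 9 bases between them and bound by ATF6 with NF-Y, was in the promoters of 9 of the 19 members in the table and in 0.119% of all promoters. The list holds known targets of this element, so that share describes the list. The stretches of 4 members are shown so that Hspa5, at 0.00 over both cycles, can be set beside 3 that were lower. They are written on the strand of the gene with the element in capitals. In Creld2 and Calr it lies on the other strand and reads CGTGG first and ATTGG last.
Hspa5, 65 bases before the start site, chr2:34772005-34772063, plus strand: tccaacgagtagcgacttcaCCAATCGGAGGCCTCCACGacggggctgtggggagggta
Pdia6, 98 bases before the start site, chr12:17266471-17266529, plus strand: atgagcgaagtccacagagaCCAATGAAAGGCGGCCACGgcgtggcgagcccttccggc
Creld2, 126 bases before the start site, chr15:88819500-88819558, plus strand: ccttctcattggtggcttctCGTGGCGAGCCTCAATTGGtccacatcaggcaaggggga
Calr, 162 bases before the start site, chr8:84847055-84847113, minus strand: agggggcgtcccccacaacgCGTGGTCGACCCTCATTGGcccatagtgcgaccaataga
Hsp90b1 (-0.16 ± 0.06), Syvn1 (-0.13 ± 0.05), Canx, Dnajc3 (0.08 ± 0.05) and Derl3, which was below the median intensity, also held it. The E-box shares CACG with this element, and in no promoter of these lists did the matches overlap.

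Genes of ER export, which carry folded cargo towards the Golgi, had no common direction in the 2 cycles. Of 18 measured, 9 were higher and 3 lower (median 0.07) in the contrast over both cycles. The counts were 3 and 0 both with the β-actin covariate and without the 4 arrays. In the separate cycles the medians were 0.07 and -0.02, and 3 of 18 had a value above 0 in both and 4 a value below 0 in both. Sar1b, the GTPase that starts a COPII vesicle, differed by 0.18 ± 0.04 (0.20 and 0.06 in the cycles) and by 0.10 with the covariate. Sec22b, a vesicle SNARE, gave 0.31 ± 0.09 but -0.08 in the 2nd cycle alone.

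The proteasome and the ribosome were also mostly higher in the decline, by small amounts. Of 25 proteasome genes 10 were higher and 1 lower, with a median of 0.07 and the highest at 0.30 (Psmb5, a catalytic subunit). With the β-actin covariate 0 were at an unadjusted p under 0.05 in either direction, Psmb5 gave 0.02, and without the 4 arrays 3 were higher. In both cycles 16 of 25 were higher, against 23.1% of the genes above the median. Of 20 ribosomal protein genes 9 were higher and 0 lower, with a median of 0.02. With the covariate 2 were higher, Rps7 (0.04) and Rps24 (0.06), and without the 4 arrays 2 were higher.

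Lower in the decline were genes of glycolysis and hypoxia (10 of 19, 1 higher, median -0.10), of lysosome and autophagy (9 of 19, 0 higher, median -0.06) and of FoxO and quiescence (7 of 20, 0 higher, median -0.07). The last was near the 24.3% of all such genes. Pfkl, a phosphofructokinase, gave -0.63 ± 0.16, and P4ha1, a collagen prolyl hydroxylase and hypoxia target, -0.27 ± 0.06. With the β-actin covariate 4, 2 and 1 members of these lists were lower, and without the 4 arrays 3, 2 and 2. Pfkfb3, an activator of glycolysis, was the exception on the higher side, with 0.10 ± 0.04 here and 0.34 and 0.23 in the cycles, and it passed with the cycle block (adjusted p = 0.000843). Cirbp, a cold-inducible RNA-binding protein known to cycle with body temperature, gave 0.21 ± 0.09, 0.32 and 0.46 in the cycles, and 0.33 with the β-actin covariate (unadjusted p = 0.00126).

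Mitotic genes showed how far a group can depend on the drift. In each cycle 22 of 22 were higher in the decline, with medians of 0.26 and 0.37. Of the genes above the median, 23.1% were higher in both cycles. With the cycle block 9 mitotic genes passed the adjusted test as higher, against 2.29% of all probe sets. With the linear term 18 of the 22 mitotic genes were lower, with a median of -0.10, against 62.5% of the genes above the median. At an unadjusted p under 0.05, 2 of the mitotic genes were higher and 4 lower. With the β-actin covariate 1 was lower and 0 higher (median -0.01), and without the 4 arrays the counts were the same (median 0.01). Top2a, the topoisomerase of chromosome condensation, went from 17.46 at hour 28 to 16.94 at hour 45 and from 16.52 at hour 56 to 16.29 at hour 67. Its difference was 0.42 in the 1st cycle, 0.29 in the 2nd and -0.02 ± 0.04 with the linear term. Tpx2, a spindle assembly factor, stayed higher in all 3 values (0.55, 0.38 and 0.19 ± 0.06). DNA replication genes gave the same count with the cycle block (9 of 21 higher) and an even split with the linear term (3 higher, 3 lower). With the β-actin covariate, and without the 4 arrays, 1 was higher and 0 lower.

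**Figure D4:**
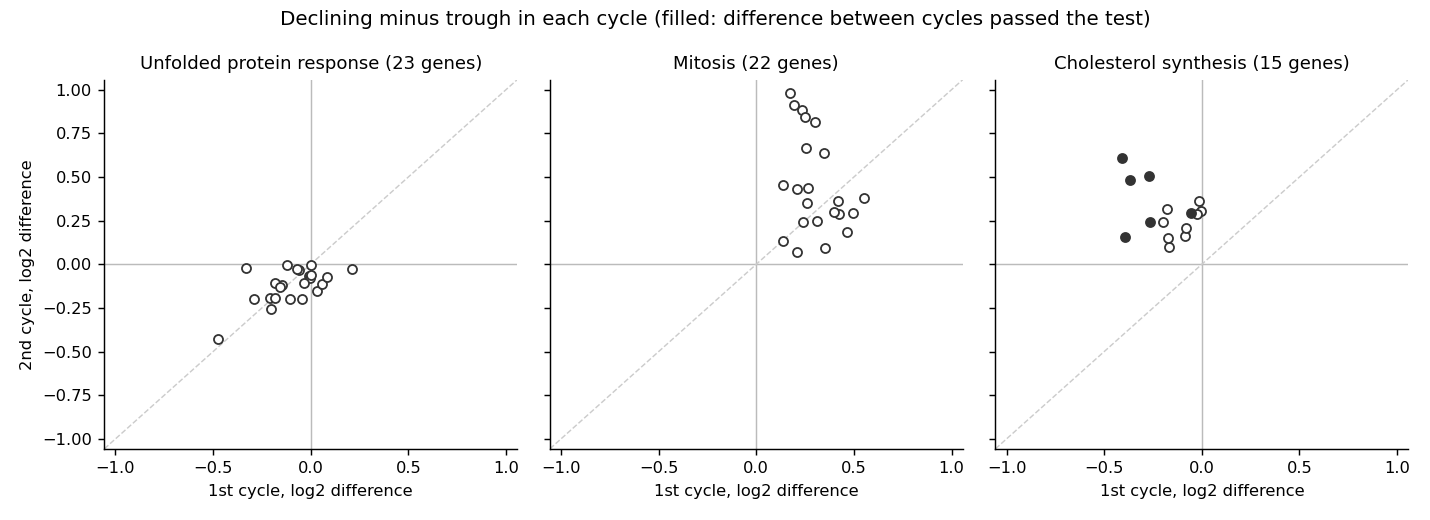
Log2 difference, declining minus trough, in the 2nd cycle (y axis) against the 1st (x axis) for 3 gene lists, without a linear term; each point is 1 gene, filled where the difference between cycles passed the adjusted test, and the dashed line marks equality. Most unfolded protein response genes lie below 0 on both axes (17 of 23), all 22 mitotic genes lie above 0 on both, and all 15 cholesterol synthesis genes are negative in the 1st cycle and positive in the 2nd.

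Whether the 2 cycles differed was tested for every probe set as the 1st-cycle difference minus the 2nd, in a model of the 4 window means. Of 45037 probe sets 230 (0.511%) passed, 65 of them positive and 165 negative. This count rested on single arrays: it was 71 without hour 56, 118 without hour 67, 127 without hour 29, 153 without hour 30 and 9283 without hour 65. With hours 40, 43, 45 and 67 all left out it was 81. In the separate cycles 13375 probe sets were higher (29.7%) and 3886 lower (8.63%) in the 1st decline, and 20 were higher (0.0444%) and 6 lower (0.0133%) in the 2nd, where only 2 and 4 arrays were compared. Of the 13375, 10130 lay at or below the median intensity, where the median 1st-cycle difference of all probe sets was 0.01. Centring each array on its median left 1855 higher and 2588 lower, and quantile normalization 2625 and 2584.

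Cholesterol synthesis was the group with the most members whose cycles differed. Its enzymes are induced together by SREBP2 when sterols in the cell run low. All 15 measured members were lower in the 1st decline than in the 1st trough and higher in the 2nd decline than in the 2nd trough, with medians of -0.17 and 0.29. The difference between cycles passed for 6 of 15: Mvd (-1.02 ± 0.17), Mvk (-0.85 ± 0.14), Lss (-0.78 ± 0.16), Dhcr7 (-0.55 ± 0.10), Fdft1 (-0.51 ± 0.09) and Cyp51 (-0.35 ± 0.06), with adjusted p-values from 0.0166 to 0.0497.

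Mvd, which makes isopentenyl pyrophosphate, lay between 13.49 and 13.75 in the 1st decline and between 13.73 and 14.16 in the 1st trough. In the 2nd cycle it stood at 13.91 and 13.76 at hours 56 and 57 and between 12.94 and 13.50 in the trough. Mvk, mevalonate kinase, went from 12.63 to 12.84 up to 12.99 to 13.24, and then from 12.93 and 12.74 down to 12.08 to 12.60. Over the course Mvd went from 13.31 at hour 21 to 14.10 at hour 43 and 13.13 at hour 67, and Mvk from 12.58 to 13.05 and 12.22. A course that rises and later falls puts the 2 trough windows on opposite sides of the declining window of their own cycle. Whether phase adds to that course was not tested. In the contrast over both cycles these genes nearly cancelled, and the list had a median of -0.08 with 1 lower and 0 higher at an unadjusted p under 0.05. The count of 6 became 9 with the β-actin covariate and 0 both without hour 56 and without the 4 arrays over 1.4. It was 3 without hour 57, where 0.453% of all probe sets passed. Without hour 65 it was 12, but 20.6% of all probe sets passed there, against 0.511% with all 18 arrays. The 15 differences stayed negative in all 24 alternatives and their median ranged from -0.44 to -0.31.

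The 6 largest fitted differences between cycles came from transcripts whose fitted change was larger in the 1st cycle. Retnla, a secreted resistin-like protein, went from 11.22 at hour 28 to 5.55 at hour 45 and stood at 5.54 to 5.57 in the 2nd-cycle windows. All its 2nd-cycle arrays were thus at the floor of the array, so a 2nd-cycle difference was not measured and no size is read from the fit of its cycle difference. Vip, a neuropeptide induced through cyclic AMP, lay between 8.18 and 9.84 in the 1st decline and between 5.61 and 5.62 in the 1st trough. In that trough and in both windows of the 2nd cycle Vip was at the floor, so the same holds for it, and its drop in the 1st cycle has only a lower limit.

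The other 4 ran upward. Inmt, an indolethylamine methyltransferase, stood at 9.74 or below in the 1st decline, at 12.50 at hour 45 and at 14.84 at hour 67, with a cycle difference of -2.64 ± 0.48 (adjusted p = 0.0268). Ccl8, a monocyte chemokine, gave -2.26 ± 0.38, and Pgm5, a phosphoglucomutase relative found at cell adhesions, -1.95 ± 0.36. Mgarp, a mitochondrial protein, gave -2.60 ± 0.52, and its call was lost in 17 of 24 alternatives, against 5 for Inmt, 5 for Pgm5 and 2 for Ccl8. These 4 passed with the cycle block (adjusted p from 0.000660 for Ccl8 to 0.0117 for Mgarp).

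**Figure D5:**
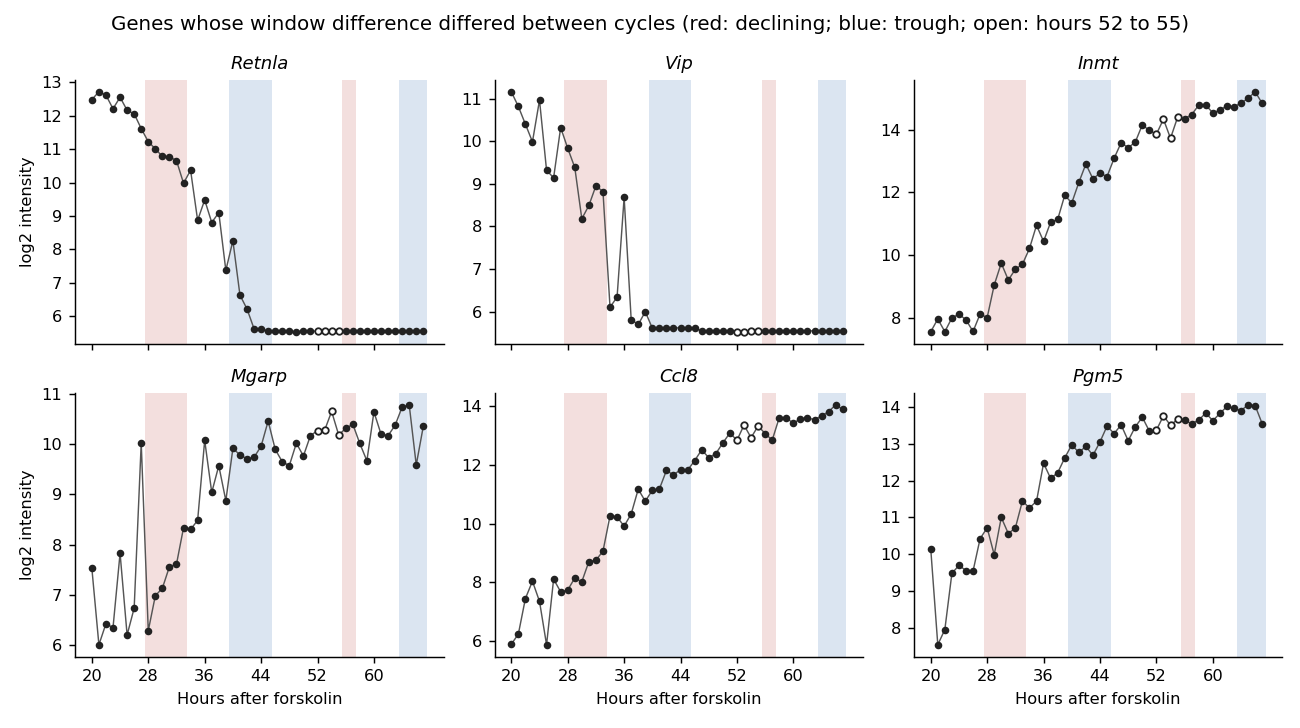
Log2 intensity of 6 genes (y axis) against hours after forskolin (x axis), 1 point per array, with declining windows in red, trough windows in blue and hours 52 to 55 open. Vip is at 5.61 by hour 40 and Retnla at 5.62 by hour 43 and both stay near there, and Inmt, Mgarp, Ccl8 and Pgm5 climb steeply in the 1st cycle. In the 2nd, Inmt (13.42 at hour 48, 15.20 at hour 66) and Ccl8 (12.24 and 14.04) climb more slowly.

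Over the 30 arrays outside both groups, the probe sets of other genes whose log2 course was most like that of Cry1 belonged to Dbp (Pearson r = 0.80 and 0.79 for its 2 probe sets), Tef (0.78), Sphk2, a sphingosine kinase (0.76), the dimmer Tomm20 probe set (0.74) and Rprd2, a regulator of RNA polymerase II (0.70). The probe sets of Sphk2 and Rprd2 were not the brightest of their genes either. These hours are successive points of 1 course and share its drift, so the values are a description. In the contrast of the windows these genes were not alike. This Rprd2 probe set differed by 0.47 ± 0.09 (13.30 to 13.92 against 12.92 to 13.43), and that of Sphk2 by -0.01 ± 0.19 with ranges of 9.99 to 10.82 and 10.13 to 11.39.

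The markers of fibroblasts, the cell type of this line, were bright. All 10 were above the median intensity, with means over the course from 16.40 for Pdgfrb to 19.01 for Vim. Their largest difference between the groups was -0.14 ± 0.08 (Pdgfrb). Of the macrophage markers, Ptprc, Adgre1 and Tyrobp lay between 5.39 and 5.46 on average, at the floor of the array, and only Cd68 was above the median (10.42). None of the 7 epithelial or 6 endothelial markers was above the median. Of the adipocyte, skeletal muscle and neuron markers, 1 of 4, 1 of 6 and 2 of 6 were above it.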

How the data were processed

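RNA of 48 hourly samples was hybridized to Affymetrix mouse arrays, and only the deposited series table was used. Its values are probe set intensities on a linear scale (34.8 to 761156.7), normalized by the authors. GCRMA is named for such values in the methods and MAS5 in the processing notes, with no version stated. As the scaling constant is unknown, a level has meaning only beside others of this series. Values were taken to log2 with no constant added and no filter. Array medians of the 18 arrays lay between 6.58 and 6.71, and array number limits the precision.

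Groups came from the hour in the sample title. Phase and a linear term for hour were fitted to 8 and 10 arrays with limma 3.58.1 in R 4.3.3 (15 residual degrees of freedom), with moderated tests and Benjamini-Hochberg adjustment at 0.05 over 45037 probe sets, the 64 controls apart. Cycle differences used the same 18 arrays and 4 window means. Residuals of neighbouring hours had a median correlation of 0.075 over 14 pairs. The p-values measure spread between hours and not between independent cultures. Fits were tested on simulated data.

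A probe set was named where the annotation gave 1 symbol (34945, with 932 holding several and 9160 none, and 34741 updated by gene identifier). A gene is shown by its probe set of highest mean over 48 arrays unless another is said. Named genes were all clock repressors, activators and output genes, and the 6 largest cycle differences that passed. As none passed the phase contrast, they also held the 5 smallest p in each direction, from named probe sets above the median intensity. Of the genes in 33 lists, 36 were not analysed here. Members, windows and lists were chosen with earlier results of these data known. Other lists, among them heat shock, immediate early genes, extracellular matrix, interferon, NF-kB, NRF2, p53, oxidative phosphorylation and TGF-beta, are summarized at the end. Motifs were matched in RefSeq promoters with Python 3.11.15 and pandas 2.3.3, and plots used matplotlib 3.10.9 and numpy 2.4.6.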

Additional observations from a re-analysis of the deposited data

Results flagged for a closer look

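Some single arrays lay far from the rest of their group. In the trough group hour 45, the array with the highest β-actin difference, was the highest for Bhlhe40 (16.23, next 15.69), Tef (14.84, next 14.30) and Rgs16 (6.95, next 6.32). Hour 28, the first declining hour, was the highest declining array for Rgs16 (6.17, next 5.82), and hour 40, the first trough hour, the highest trough array for Retnla (8.26, next 6.63). Chance alone marks about 1 in 20 groups in this way, and 43 genes were looked at in 2 groups.

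The 1st- and 2nd-cycle differences of 4 genes were unequal by limma's test of the difference itself, by -2.64 for Inmt, -2.60 for Mgarp, -2.26 for Ccl8 and -1.95 for Pgm5. The same fit gave 4.42 for Retnla and 3.34 for Vip, but their 2nd-cycle arrays, and the 1st trough of Vip, lay at the floor of the array. No change could be seen there, so these 2 values are not measured differences between cycles. The causes were not tested.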

How the results depend on the processing

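The count of 0 in each direction held under even or odd hours only, quantile normalization, array centring, linear values, dim probe sets left out, another spread estimate, Benjamini-Yekutieli, the β-actin covariate and the 4 trough arrays left out. It was 266 higher and 384 lower with no linear term, 1033 and 1178 with a cycle block, 4 and 0 with a quadratic term, 16860 and 3617 in the 1st cycle only (14058 of them at or below the median intensity), 2 and 1 in the 2nd cycle only, and 1 and 0 with hours 52 to 55 added. With the cycle block and the β-actin covariate together, an alternative chosen after seeing the data, it was 621 and 600. Leaving out 1 array at a time gave 0 higher and 0 to 2 lower, the 2 being Nr1d1 and Zfp358 without hour 56.

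Cycle differences numbered 408 with the β-actin covariate, 122 after removal of the slope over 48 arrays, 81 without the 4 trough arrays (chosen after seeing the data), and 71 to 9283 with 1 array left out. The count for the phase difference in the 1st cycle was 4443 after centring, 5209 after quantile normalization and 6233 above the median only, against 17261, and for the phase difference in the 2nd cycle it was 15 after centring, against 26. The causes were not tested.

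Of 43 named genes, 19 kept their sign in up to 36 alternatives and 24 changed it in at least 1. Changes between values that missed the test were counted but not treated as reversals. Among alternatives to the contrast of both cycles, Nfil3 reversed with a call, at 0.3396 (cycle block), 0.3647 (1st cycle only) and 0.358 (cycle block with the β-actin covariate). No paired analysis was possible because the labels carry no replicate numbers that match an array of 1 group with an array of the other. The cycle block joins windows and pairs no arrays. Values at the floor near 5.5 hold no order, and 1 array an hour with 2 declining arrays in the 2nd cycle limits every 2nd-cycle value.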

Other observations

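The lists not described above gave these counts at an unadjusted p under 0.05, higher and then lower in the decline, where 10.3% and 24.3% of all genes above the median intensity were called. Clock kinases and ligases had 0 and 3 of 10, the integrated stress response 2 and 5 of 17, heat shock genes 2 and 3 of 15, and immediate early genes and CREB targets 2 and 5 of 22. Extracellular matrix genes had 1 and 5 of 23, SRF and actin genes 2 and 2 of 16, interferon response genes 0 and 5 of 18, and NF-kB and chemokine genes 2 and 7 of 19. NRF2 targets had 2 and 2 of 16, p53 targets 2 and 3 of 15, oxidative phosphorylation genes 2 and 3 of 22, and TGF-beta and BMP genes 6 and 3 of 19. Adipocyte, skeletal muscle and neuron markers had 0 and 0 of 4, 6 and 6.

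Beside cholesterol synthesis, 4 list members had unequal cycles: Egr3, Adm, Psmc4 and Smad3 (adjusted p from 0.0246 to 0.0454). Immediate early genes and CREB targets were higher in both declines in 12 of 22 cases, and TGF-beta and BMP genes in 8 of 19, against 23.1% of the genes above the median intensity. Each list had 6 members higher by the adjusted test in the cycle block fit, against 2.29% of all probe sets. A steady drift is not taken out in that fit.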
